A study of Mus musculus with 18 samples.

Results

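The control libraries of a knockout study in mouse leukaemia cells are described here: 3 libraries of cells given a guide to Renilla luciferase as a control, and 3 mock libraries, which make 6 of the 18 libraries of the series. They were chosen by their labels alone. All 18 libraries were made from cultured cells of a mouse primary leukaemia that carry Cas9 and MLL-AF9, grown in serum-containing RPMI medium with 10 ng/ml mouse interleukin-3. The Renilla group (replicates 1 to 3) holds a guide whose target, a sea pansy luciferase gene, has no counterpart in the mouse genome, and the other 12 libraries hold guides against the histone demethylase gene Jmjd1c. The mock group (replicates 1 to 3) carries the same cell label, but what the mock cells received is not given in the sources used here. Separate cultures are not stated for the libraries within each group, nor whether the cells are a clone. A p-value here therefore reflects the spread of these libraries alone, which may be technical. The values are FPKM, reads scaled to transcript length and to library size, as the authors deposited them for 23899 genes.

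MLL-AF9 joins the N-terminal part of the chromatin regulator MLL (Kmt2a) to AF9 (Mllt3), and the fusion recruits the elongation machinery and the H3K79 methyltransferase DOT1L to its target genes. Hoxa9 and its partner Meis1 are the best known of these targets and are needed for the growth of such leukaemias. Mouse MLL-AF9 leukaemias usually resemble granulocyte-monocyte progenitors, the stage at which neutrophil precursors fill their primary granules with myeloperoxidase and serine proteases.

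The depth behind the values was estimated from the steps in which low FPKM values rise, since each read adds a fixed amount in a gene of known length. It came to 34.9, 40.7 and 32.4 M reads in Renilla replicates 1, 2 and 3, and to 188.9, 34.6 and 22.5 M reads in mock replicates 1, 2 and 3. Of the low values used, 99.1 to 100% fell within 10% of a whole number of reads. At 1 FPKM, a transcript of 2 kb stood for 39.7 to 359 reads, so levels near 1 FPKM are well measured at that length. Shorter transcripts have fewer reads at the same FPKM, and levels under 0.1 FPKM rest on few reads. Jmjd1c, the gene targeted elsewhere in the series, ranged over 42.2 to 74.4 FPKM (median 65.0) in the 12 Jmjd1c guide libraries. It stood at 64.2, 85.4 and 85.4 FPKM in the Renilla libraries and at 71.8, 77.1 and 74.5 FPKM in the mock libraries. Guides cut the gene and need not lower its RNA, so these levels are no full check of the labels.

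Myeloperoxidase and the serine proteases of the primary granule were among the most abundant lineage genes of these cells, and sequence before 4 of them is shown for that reason. Each window starts 250 bases before the RefSeq transcription start on GRCm38.p6 and is written 5′ to 3′ on the gene's strand. It is cut where the first GENCODE exon inside the window begins. This leaves 47 bases for Mpo, 185 for Elane and 197 for Prtn3, and all 250 are shown for Ctsg. The GENCODE gene of Prtn3 starts at 79874476, before its window, so the Prtn3 stretch lies within that gene model. Capitals mark matches, on either strand, to GAGGAA (a core of PU.1 sites), AACNGNC (a core of MYB sites) and TATAAA. The stretches lie at chr11:87793534-87793580 (plus strand) for Mpo, chr10:79886062-79886246 (plus) for Elane, chr10:79879417-79879613 (plus) for Prtn3 and chr14:56102575-56102824 (minus) for Ctsg.
Mpo: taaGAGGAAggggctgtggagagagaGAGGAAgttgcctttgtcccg
Elane: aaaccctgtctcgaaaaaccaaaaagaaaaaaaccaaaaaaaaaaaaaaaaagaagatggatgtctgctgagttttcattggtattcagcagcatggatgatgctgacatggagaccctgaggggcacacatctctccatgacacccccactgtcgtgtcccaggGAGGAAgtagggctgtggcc
Prtn3: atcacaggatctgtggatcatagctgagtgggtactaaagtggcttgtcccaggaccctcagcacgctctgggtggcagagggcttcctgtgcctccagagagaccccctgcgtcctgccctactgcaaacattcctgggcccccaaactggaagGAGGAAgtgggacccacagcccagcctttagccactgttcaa
Ctsg: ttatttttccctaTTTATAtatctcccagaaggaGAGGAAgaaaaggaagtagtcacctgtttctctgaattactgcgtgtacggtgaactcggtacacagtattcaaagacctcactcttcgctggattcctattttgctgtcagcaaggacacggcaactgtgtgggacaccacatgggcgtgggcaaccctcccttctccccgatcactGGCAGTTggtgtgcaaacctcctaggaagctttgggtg

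Motifs were counted in the whole 250-base windows. GAGGAA was found 1 time each in Elane (85 to 80 bases before the start), Prtn3 (95 to 90) and Ctsg (from base 216), 2 times in Mpo (247 to 242 and 224 to 219) and not in Ms4a3. Among 32851 RefSeq promoter windows, 23.3% held GAGGAA. The MYB core AACNGNC was found 2 times in Elane and 1 time in Ctsg and in Mpo, and in 27.7% of all windows. TATAAA was found in Ctsg only, on the strand opposite to the gene, and in 12.37% of all windows. The C/EBP letters TTGCNNAA, present in 9.56% of all windows, were in none of the 5. Each search covered both strands, no match overlapped that of another motif, and a match is a description of letters and not of binding.

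The most abundant RNAs of the control cells were those of translation and of mitochondrial respiration, although ribosomal protein genes took only 17.1 to 18.8% of summed FPKM per library and mitochondrially encoded genes 2.62 to 5.72%. In all 6 libraries, 10731 genes stood at 1 FPKM or more, of which 10115 were protein-coding, 6953 at 10 or more, 1028 at 100 or more and 106 at 1000 or more. Under 0.1 FPKM in every library were 5872 genes, 707 of them listed at 0 throughout. The 20 most abundant genes with a symbol of their own took 10.9% of all FPKM summed over genes. Eef1a1, the elongation factor that brings tRNA to the ribosome, led with 7344, 6587 and 6764 FPKM in the Renilla libraries and 6584, 6441 and 6766 FPKM in the mock libraries. Next came mt-Co2 and mt-Co1, subunits of cytochrome c oxidase encoded in mitochondrial DNA, at means of 6688 ± 943 and 6397 ± 1070.5 FPKM (SD, n = 6). The rest of the 20 were mt-Atp6, mt-Atp8, mt-Co3, 12 ribosomal protein genes or copies of them with symbols that start in Rpl or Rps (Rplp1 included), the pseudogene Rps23-ps1 and the prolyl isomerase gene Ppia. Ppia had the smallest SD of the 20 relative to its mean, at 3516, 3547 and 3518 FPKM in the Renilla libraries and 3497, 3527 and 3353 FPKM in the mock libraries. Reads of ribosomal protein genes and their many copies could be divided between near-identical models by the authors' counting, so single values of such genes are uncertain. Below the machinery of translation, and picked after the values were seen, stood the ferritin light chain gene Ftl1 (2438 ± 396 FPKM), Gapdh (2301 ± 299.8), the nucleolar chaperone gene Npm1 (1948 ± 377) and the thymosin gene Tmsb4x (1892 ± 364; all SD, n = 6).

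Genes of the primary granule list ranked high as well. Srgn, the proteoglycan core that packs proteases into granules, ranked 51st of all genes, Plac8 91st, Prtn3 (proteinase 3) 101st, Mpo (myeloperoxidase) 107th, Elane (neutrophil elastase) 108th and Ctsg (cathepsin G) 147th. Mpo, on chromosome 11 from 87793581 to 87804413, stood at 1376, 1158 and 1084 FPKM in the Renilla libraries and at 1246, 1164 and 1119.6 FPKM in the mock libraries. Elane, on chromosome 10 from 79886247 to 79888215, stood at 1345, 1060.3 and 1083 FPKM in the Renilla libraries and at 1209, 1190.2 and 1211 FPKM in the mock libraries. For both genes the highest value was that of Renilla replicate 1. Without it the groups overlapped for Mpo, while for Elane both other Renilla values lay below all 3 mock values. Prtn3, its neighbour on the same strand, stood at 1238, 1179 and 1241 FPKM in the Renilla libraries and at 1322, 1315 and 1415 FPKM in the mock libraries. All Prtn3 values of the mock libraries lay above those of the Renilla libraries, as in 4.23% of all tested genes. Ctsg ranged over 778 to 1019 FPKM in the Renilla libraries and 732 to 918 FPKM in the mock libraries, and Ms4a3, a membrane protein gene of granulocyte-monocyte progenitors, over 310.1 to 432 and 363 to 415 FPKM. The spread across the 6 libraries was small beside the level for most granule genes: the SD was 105 FPKM on a mean of 1191 FPKM for Mpo and 83.1 FPKM on 1285 FPKM for Prtn3. Prtn3 lay above both Mpo and Elane in Renilla replicates 2 and 3 and in all 3 mock libraries, and below both in Renilla replicate 1. Levels were not tested between genes. The primary granule list also holds genes such as Ms4a3, whose product is a membrane protein. Its counts are therefore not counts of granule contents alone. Of its 14 genes, all had a mean of at least 1 FPKM, 13 of at least 10 and 11 of at least 100. Lowest were Prss57 at 12.1 ± 4.48 FPKM and Bpi, which encodes a bactericidal protein, at 1.13 ± 0.167 FPKM (SD, n = 6).

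**Figure D1:**
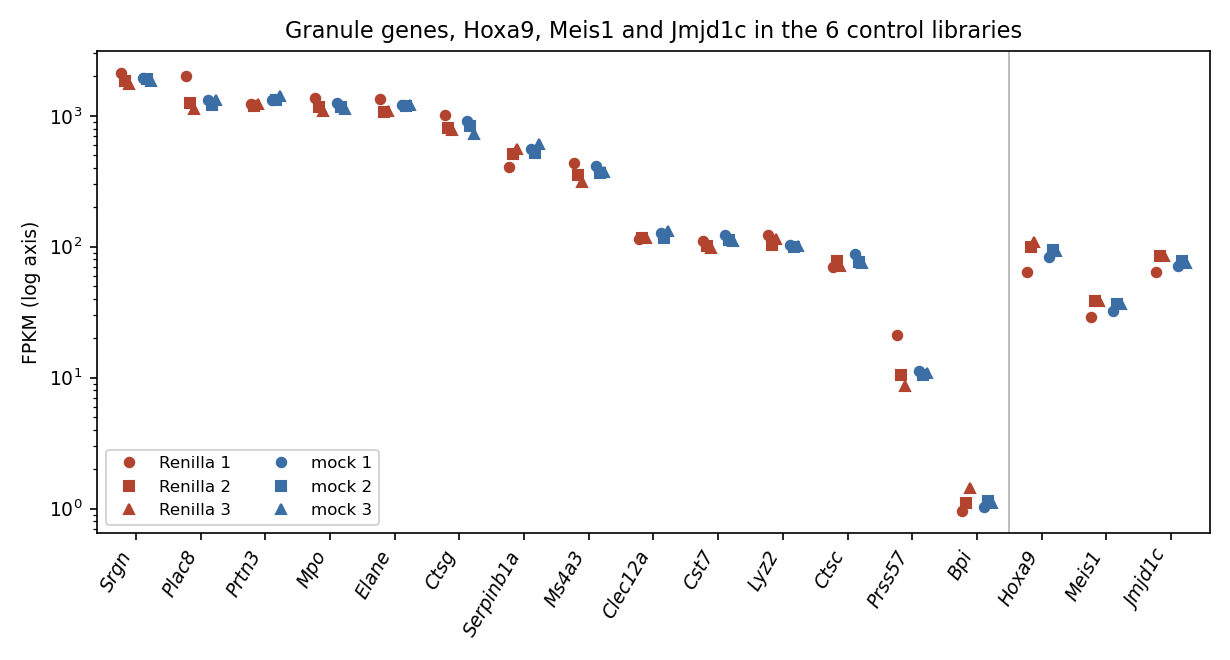
FPKM on a log axis of the 14 genes of the primary granule list, Hoxa9, Meis1 and Jmjd1c in each control library. Renilla libraries are in red to the left and mock libraries in blue to the right of each gene. The marker shape gives the replicate. Renilla replicate 1 (red circles) is the highest for 8 of the 14 listed genes, Srgn, Plac8, Mpo, Elane, Ctsg, Ms4a3, Lyz2 and Prss57. It is the lowest for 4, Serpinb1a, Clec12a, Ctsc and Bpi, and for Hoxa9, Meis1 and Jmjd1c.

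Genes of later neutrophil stages were mixed. Of 20 listed genes, 14 had a mean of at least 1 FPKM, 6 of at least 10 and 2 of at least 100. Hp (haptoglobin) led at 313 ± 36.0 FPKM, followed by Cebpe, the transcription factor of the promyelocyte to myelocyte step, at 108 ± 7.67 FPKM (SD, n = 6). The calprotectin genes were moderate, with S100a8 at 40.3, 49.7 and 70.8 FPKM in the Renilla libraries and 35.6, 41.0 and 41.5 FPKM in the mock libraries. Renilla replicate 3 was the highest for S100a8 and also for S100a9 (72.3 FPKM, against 27.9 to 42.8 FPKM in the other 5). Other members stood low: the mean of Camp (cathelicidin) was 4.32 FPKM, that of Ltf (lactoferrin) 0.424 FPKM and that of Mmp8 (collagenase) 0.226 FPKM. Ltf reached 0.398 to 0.850 FPKM in the Renilla libraries and 0.0910 to 0.248 FPKM in the mock libraries, without overlap but at a level that kept it out of the test.

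Monocyte and macrophage genes were present in part. Of the 23 measured genes, 12 had a mean of at least 1 FPKM, and 5, among them C1qb, C1qc, Mertk and Mrc1, were under 0.1 FPKM in every library. Ly6c2, a surface antigen of inflammatory monocytes and their progenitors, stood at 745 ± 49.0 FPKM, far above Adgre1 (F4/80) at 36.6 ± 3.64 FPKM and Ccr2 at 36.4 ± 3.61 FPKM (SD, n = 6). Csf1r, the macrophage colony-stimulating factor receptor, was at 2.12 ± 0.198 FPKM (SD, n = 6) and the complement gene C1qb at no more than 0.0342 FPKM. Irf8, a factor of the monocyte and dendritic lines, stood at 10.6, 11.1 and 11.4 FPKM in the Renilla libraries and 7.47, 9.82 and 7.48 FPKM in the mock libraries. Every Renilla value was above every mock value, as in 4.22% of all tested genes. In a bulk sample a low level can come from few cells of a type or from little RNA in each cell, and these cannot be told apart.

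Markers of mast cells, basophils and eosinophils were more frequent than those of lymphoid, erythroid or stromal cells. Of 12 measured genes, 8 had a mean of at least 1 FPKM. Hdc, the histamine-making enzyme, ranged over 57.3 to 82.4 FPKM in the Renilla libraries and 55.9 to 70.3 FPKM in the mock libraries. Gata2, a factor of stem, mast and basophil cells, averaged 24.0 ± 3.46 FPKM, Cpa3 (mast cell carboxypeptidase) 9.69 ± 0.510 FPKM and Mcpt8 (a basophil protease) 6.05 ± 0.911 FPKM (SD, n = 6). The granule gene Prg2 of eosinophils ranged over 5.13 to 8.98 FPKM in the Renilla libraries and 3.08 to 4.74 FPKM in the mock libraries. Renilla thus lay above mock without overlap, as in 4.22% of all tested genes. Siglecf, a surface lectin of eosinophils, reached 4.95 FPKM in a Renilla library and 4.92 FPKM in a mock library, while Ccr3 and Tpsab1 stayed under 0.1 FPKM in every library.

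Other lineages were near the floor apart from single genes. Of 11 erythroid genes, 2 had a mean of at least 1 FPKM, Tfr2 (10.6 ± 1.27 FPKM) and Gata1 (2.86 ± 0.965 FPKM), and 3, Alas2 and Rhag among them, were under 0.1 FPKM in every library. Of 12 megakaryocyte genes, 3 did, led by the integrin genes Itga2b (9.72 ± 1.42 FPKM) and Itgb3 (5.99 ± 0.473 FPKM), and Gp1ba, Gp5, Gp6, Ppbp and Tubb1 were under 0.1 FPKM throughout. Among 14 dendritic cell genes 1 had a mean of at least 1 FPKM, the broadly used factor gene Tcf4 at 20.8 ± 2.12 FPKM, and the invariant chain gene Cd74 averaged 0.691 ± 0.415 FPKM. None of 11 B cell genes reached a mean of 1 FPKM. The highest was Vpreb1, part of the surrogate light chain, at 0.933 ± 0.437 FPKM, and Pax5 was listed at 0 in 5 libraries and at 0.00131 FPKM in mock replicate 1, the deepest. Of 16 T and NK cell genes, Lck alone reached a mean of 1 FPKM (4.79 ± 0.766), and 10 were under 0.1 FPKM in every library, Cd3e, Cd4 and Cd8a among them. Of 14 stromal, endothelial and epithelial genes, Pecam1 (7.43 ± 1.05 FPKM) and Pdgfrb (4.23 ± 0.667 FPKM) reached it, and 10, Col1a1, Cdh5 and Epcam among them, stayed under 0.1 FPKM (SD, n = 6 throughout). Summed over the list, B cell genes came to 2.13 to 3.21 FPKM in the Renilla libraries and 2.27 to 2.38 FPKM in the mock libraries. T and NK cell genes came to 6.50 to 8.17 FPKM and 7.10 to 7.91 FPKM in the same order, and stromal genes to 11.1 to 11.98 FPKM and 12.36 to 15.3 FPKM.

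**Figure D2:**
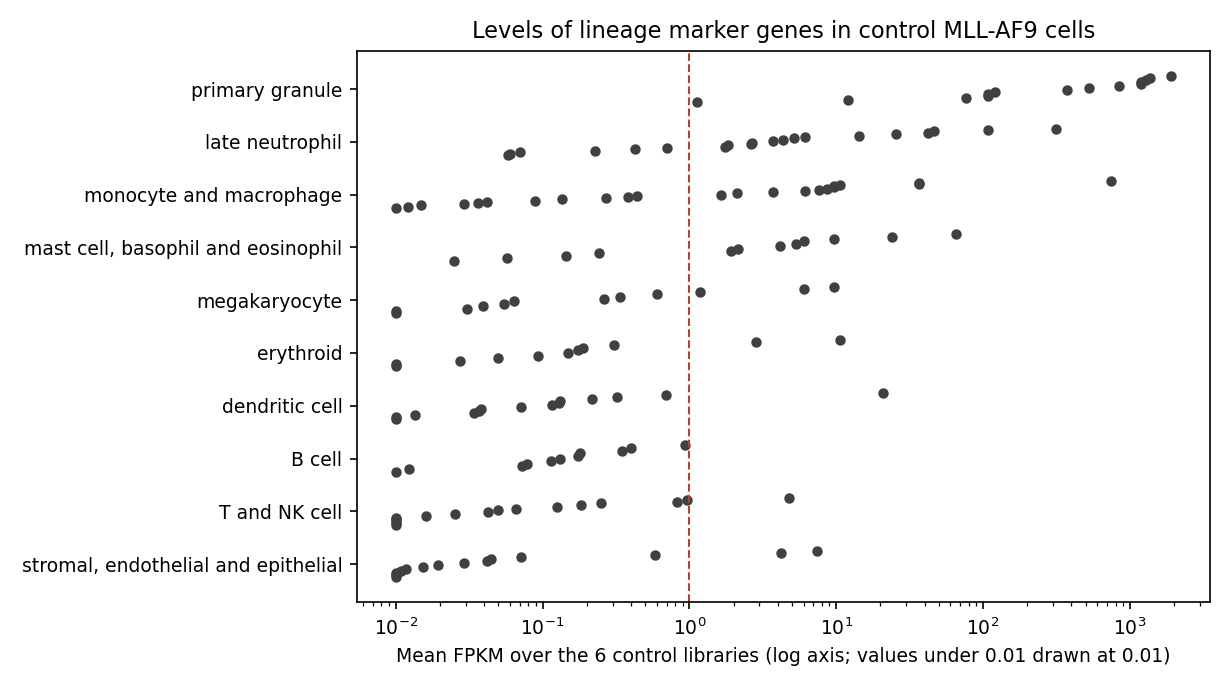
Mean FPKM over the 6 control libraries, on a log axis, of each measured gene of 10 lineage lists, with a dashed line at 1 FPKM and values under 0.01 FPKM drawn at 0.01. All 14 genes of the primary granule list lie right of the line, none of 11 B cell genes does, and the other lists fall between.

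Among 21 surface genes of stem and progenitor cells, 14 had a mean of at least 1 FPKM and 5 of at least 100. Cd34 stood at 120.1, 142 and 142 FPKM in the Renilla libraries and at 126, 133 and 138 FPKM in the mock libraries. Kit, the stem cell factor receptor, ranged over 45.2 to 50.8 FPKM in the Renilla libraries and 39.4 to 46.7 FPKM in the mock libraries. The Fc receptor genes of granulocyte-monocyte progenitors were abundant, with Fcgr2b at 157 ± 16.7 FPKM and Fcgr3 at 121 ± 18.9 FPKM, and the antiphagocytic signal gene Cd47 led the list at 417 ± 24.0 FPKM. Low members were also found: Ly6a (Sca-1) averaged 0.389 ± 0.181 FPKM, Slamf1 (CD150) 0.169 ± 0.0614 FPKM and Flt3 0.320 ± 0.0452 FPKM (SD, n = 6 throughout). Il7r was under 0.1 FPKM and Cd200 at 0 in every library.

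Expression from the HOX clusters was concentrated in Hoxa. Of 11 Hoxa genes in the table, 9 had a mean of at least 1 FPKM, against 2 of 9 in Hoxb, 0 of 6 in Hoxc and 0 of 3 in Hoxd. Summed over the cluster, Hoxa genes came to 212 to 261 FPKM per library, Hoxb genes to 3.95 to 4.68 FPKM and Hoxd genes to no more than 0.0913 FPKM. Hoxa9, on chromosome 6 from 52223100 to 52231089, stood at 64.2, 99.2 and 108 FPKM in the Renilla libraries and at 84.1, 94.4 and 93.5 FPKM in the mock libraries. Hoxa10, beside it on the 5′ side, stood at 69.6, 60.6 and 63.7 FPKM in the Renilla libraries and at 57.5, 51.7 and 55.8 FPKM in the mock libraries. In Renilla replicate 1 Hoxa9 was thus lower than Hoxa10, while it was higher in the other 5. Without strand-aware counting being stated in the sources used here, reads of overlapping transcripts in this dense cluster cannot be assigned with certainty. Levels fell away on both sides of the pair: Hoxa11 averaged 22.9 ± 2.65 FPKM, Hoxa7 28.3 ± 2.81 FPKM, Hoxa5 11.7 ± 1.55 FPKM and Hoxa6 7.52 ± 1.99 FPKM (SD, n = 6). At the end of the cluster, Hoxa13 was at 0.0129 FPKM in Renilla replicate 1, at 0.00697 FPKM in mock replicate 1 and at 0 in the other 4. Outside Hoxa only Hoxb4 (2.32 ± 0.229 FPKM) and Hoxb13 (1.54 ± 0.331 FPKM) reached a mean of 1 FPKM.

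**Figure D3:**
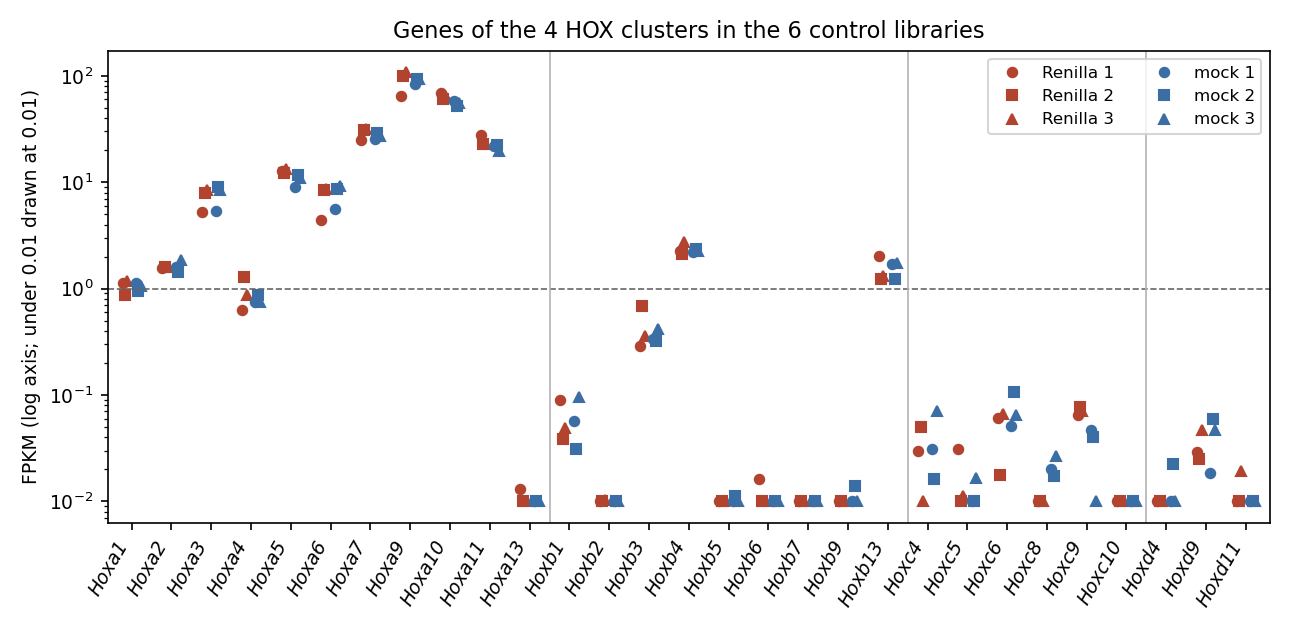
FPKM on a log axis of each HOX gene in the table, ordered by cluster and number, with Renilla libraries in red left of mock libraries in blue, a dashed line at 1 FPKM and values under 0.01 FPKM drawn at 0.01. Levels peak at Hoxa9 and Hoxa10, and in the other 3 clusters only Hoxb4 and Hoxb13 lie above the line in every library.

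Genes of the MLL-fusion list were expressed with few gaps, 24 of the 27 measured at a mean of at least 1 FPKM and 22 at 10 or more. Beside known targets, the list holds Kmt2a, Mllt3, Dot1l, Men1 and Psip1, genes of the fusion's parts and cofactors. Its counts are therefore not counts of targets alone. Meis1 stood at 28.8, 38.7 and 38.3 FPKM in the Renilla libraries and at 32.1, 36.4 and 36.4 FPKM in the mock libraries. The cyclin-dependent kinase gene Cdk6 averaged 122.8 ± 7.87 FPKM and the adaptor gene Lmo2 254 ± 20.7 FPKM (SD, n = 6). Flt3, Mecom and Eya1 were the exceptions, and Mecom and Eya1 were under 0.1 FPKM in every library. Mllt3 averaged 90.2 ± 4.23 FPKM and Kmt2a 56.5 ± 7.78 FPKM (SD, n = 6), and whether reads of the fusion itself are among them was not tested.

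Among transcription factors of stem and progenitor cells, 17 of 23 had a mean of at least 1 FPKM. Lmo2, Myb, Nfe2 and Myc led. Myb, needed by MLL-AF9 cells for self-renewal, ranged over 189.5 to 262 FPKM in the Renilla libraries and 206 to 249 FPKM in the mock libraries, and Myc over 104 to 115 FPKM and 98.2 to 112 FPKM. Mecom, Hlf, Bcl11a and Mycn, of which the first pair mark stem cells, stayed under 0.1 FPKM in all 6. Of 27 myeloid factors, 19 reached a mean of 1 FPKM. Spi1 (PU.1), the master factor of myeloid cells, was at 161, 169 and 177 FPKM in the Renilla libraries and at 165, 169 and 179.9 FPKM in the mock libraries. Gfi1, a repressor of the neutrophil line, averaged 144 ± 23.2 FPKM and Cebpa 57.5 ± 4.54 FPKM (SD, n = 6). Cebpb varied between libraries, at 80.6, 87.5 and 70.6 FPKM in the Renilla libraries and 46.1, 88.8 and 48.9 FPKM in the mock libraries, and the groups overlapped. Klf4 averaged 0.0883 FPKM, and the macrophage factor gene Maf did not reach 0.1 FPKM in any library. The immediate-early factors were low, with means of 1.61 ± 0.924 FPKM for Fos, 1.19 ± 0.727 FPKM for Jun and 0.454 ± 0.200 FPKM for Egr1 (SD, n = 6). Factors that define other tissues were close to absent. Of 15 measured, Gata1 and Hnf4a reached a mean of 1 FPKM, and 8, among them Pax5, Bcl11b, Sox10 and Pou5f1, stayed under 0.1 FPKM throughout.

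Receptors for the cytokine in the medium were all expressed. Interleukin-3 binds an alpha chain, Il3ra, that signals with the beta chain Csf2rb, shared with the receptors for GM-CSF and interleukin-5, or in mice with the interleukin-3 specific Csf2rb2. Il3ra was at 56.7, 44.5 and 43.0 FPKM in the Renilla libraries and at 40.2, 44.7 and 41.3 FPKM in the mock libraries. Csf2rb was at 41.1, 50.4 and 47.9 FPKM and at 45.6, 51.4 and 47.8 FPKM in the same order of groups, and the level of Csf2rb2 was lower, at 3.80 to 6.14 FPKM over the 6 libraries. These paralogs are similar, and the authors' counting could divide reads between them. Of 36 cytokine and growth factor receptor genes, 26 reached a mean of 1 FPKM, led by Ifngr1 (191 ± 19.8 FPKM) and the GM-CSF receptor gene Csf2ra (128 ± 12.1 FPKM). Csf3r, the G-CSF receptor, was at 16.4 ± 1.79 FPKM (SD, n = 6), and Il7r, Il1r1 and Il18r1 were under 0.1 FPKM in every library. Of 22 genes listed as interleukin-3 and STAT5 targets, 18 had a mean of 1 FPKM or more. This list includes Csf2rb and Csf2rb2 themselves, and whether STAT5 acts on its members in these cells was not tested. The kinase gene Pim1 stood at 202 ± 12.8 FPKM and the feedback inhibitor Cish at 22.8 ± 4.28 FPKM (SD, n = 6). Cyclin D genes differed among themselves: Ccnd3 stood at 149.5 ± 3.26 FPKM, Ccnd2 at 64.0 ± 6.73 FPKM and Ccnd1 at 0.0719 ± 0.0326 FPKM (SD, n = 6).

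Chemokine and related receptors were fewer, 13 of 29 with a mean of at least 1 FPKM. Adgrg3 (176 ± 11.8 FPKM), Cxcr4 (112 ± 16.7 FPKM), which retains progenitors in the marrow, and the leukotriene B4 receptor gene Ltb4r1 (77.9 ± 5.05 FPKM) led. Cxcr2, the chemokine receptor of mature neutrophils, averaged 5.13 ± 0.775 FPKM (SD, n = 6), and Fpr1 and Ackr3 were listed at 0 in all 6 libraries. Of 24 Toll-like and other pattern recognition genes, 17 reached the mean of 1 FPKM. The DNA sensor gene Aim2 was highest at 54.4 ± 7.26 FPKM, and Tlr4 averaged 20.2 ± 2.29 FPKM (SD, n = 6), while Tlr3 and Tlr5 were under 0.1 FPKM in every library. Interferon response genes were at a low tone: 13 of 32 reached a mean of 1 FPKM, Isg15 averaged 0.504 ± 0.198 FPKM (SD, n = 6), and Ifit3, Ifit3b, Rtp4 and Ifi44 were under 0.1 FPKM in every library.

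Nearly all listed genes of proliferation and metabolism were expressed. All 25 DNA replication genes, all 25 mitosis genes, all 24 cholesterol synthesis genes, all 25 nuclear genes of oxidative phosphorylation and all 29 ribosome biogenesis genes had means of at least 1 FPKM, as did 23 of 24 glycolysis genes, where Adm was the gap. The replication clamp gene Pcna averaged 358 ± 57.8 FPKM, the topoisomerase gene Top2a 273 ± 30.6 FPKM and Ldha 802 ± 31.3 FPKM. Of 25 listed p53 targets, 22 had a mean of at least 1 FPKM, with Cdkn1a (the inhibitor p21) at 69.7 ± 3.89 FPKM and Mdm2 at 45.2 ± 1.76 FPKM. Of the survival genes, Mcl1 stood at 64.9 ± 2.37 FPKM, Bcl2l1 at 22.2 ± 3.37 FPKM and Bcl2 at 5.20 ± 0.294 FPKM (SD, n = 6 throughout). The MHC class I light chain gene B2m averaged 262 ± 22.0 FPKM, and of 16 genes of class I presentation Nlrc5 alone was under 1 FPKM. Of 4 Y-linked genes measured, none reached a mean of 1 FPKM, and Kdm5d was highest at 0.653 ± 0.0661 FPKM (SD, n = 6).

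The Renilla and mock libraries did not form separate clusters, and Renilla replicate 1 stood apart from the other 5. Distance was taken as the median absolute difference in log2(FPKM + 1) over the 11550 genes that averaged 1 FPKM or more in the series. From Renilla replicate 1 to the other 5 libraries it was 0.184 to 0.241 (median 0.224), whereas the 10 pairs among the other 5 ranged over 0.0728 to 0.146. Among those 5, the 6 pairs between groups had a median of 0.108 and the 4 pairs within a group a median of 0.110. The closest pair of all was Renilla replicate 2 with mock replicate 2, at 0.0728. The first principal component held 52.6% of the variance and placed Renilla replicate 1 at 44.2, against −12.8 to −0.489 for the other 5. Renilla replicate 1 differed by 0.5 log2 units or more from the mean of the other 5 in 1567 genes, 13.6% of those tested, while for every other library the share was 2.33 to 3.65%.

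**Figure D4:**
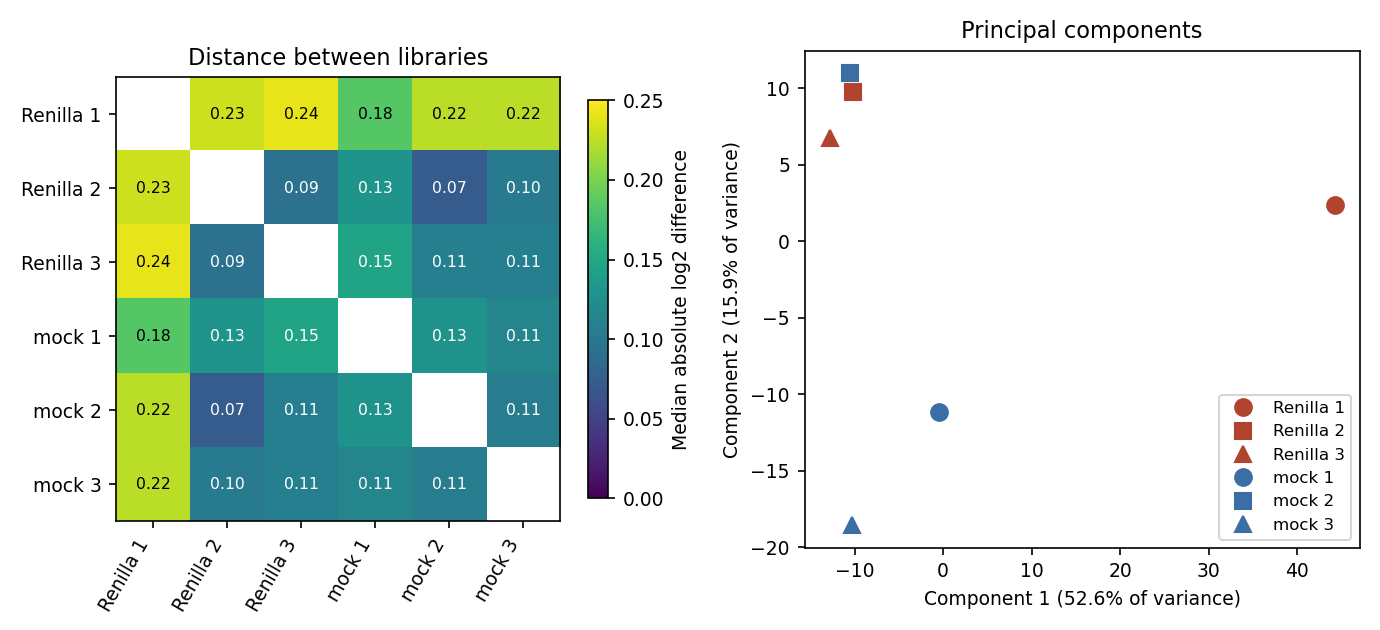
Left, the median absolute log2 difference between each pair of control libraries over 11550 genes, as a colour and as a number. Right, their positions on the first and second principal components, with Renilla in red and mock in blue, where Renilla replicate 1 lies at 44.2 on the first component and the other 5 libraries between −12.8 and −0.489.

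What set Renilla replicate 1 apart was in part mitochondrial RNA and the values of single pseudogenes. RNAs encoded in mitochondrial DNA took 2.62% of its summed FPKM, against 4.65 to 5.72% in the other 5. Among them mt-Nd4, a subunit of complex I, stood at 273 FPKM in Renilla replicate 1, at 1247 and 1277 FPKM in Renilla replicates 2 and 3 and at 1062 to 1244 FPKM in the mock libraries. The 6 genes at each end of the first component, among genes of at least 5 FPKM, were all pseudogenes. Pseudogenes together took a similar share of summed FPKM, 9.67% in Renilla replicate 1 against 9.095 to 9.60% in the other 5. Rpl30-ps9 was at 1326 FPKM in Renilla replicate 1 and listed at 0 in the other 5. In the opposite direction, Rpl38-ps2 was listed at 0 in Renilla replicate 1, against 227 and 116 FPKM in the other Renilla libraries and 203 to 445 FPKM in the mock libraries. Such copies share reads with their parent genes, so these values are uncertain. Deviation also moved with transcript length: the median difference of Renilla replicate 1 from the other 5 was 0.09 log2 units in genes of 66 to 780 bases and −0.04 in genes of 2307 bases and more. Its estimated depth, 34.9 M reads, lay within the range of the others, and the part of RNA quality or of the library preparation in these differences was not tested.

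Several gene lists stood off in this library, and they are given as values without a test. Over all tested genes Renilla replicate 1 differed from the mean of the other 5 by a median of 0.03 log2 units. The median was 0.35 for 25 DNA replication genes and likewise 0.35 for 24 cholesterol synthesis genes. It was 0.31 for 25 nuclear oxidative phosphorylation genes and −0.30 for 24 genes of the MLL-fusion list. Renilla replicate 1 had the highest value of the 6 libraries for 21 of the 25 nuclear oxidative phosphorylation genes and for 18 of the 24 cholesterol genes. Of all tested genes, 35.7% had their highest value in this library. It had the lowest value for 16 of the 24 genes of the MLL-fusion list, beside 29.2% of all tested genes. Fdps, which makes farnesyl diphosphate, stood at 667, 352 and 364 FPKM in the Renilla libraries and at 432, 386 and 369 FPKM in the mock libraries. Mcm7, of the replicative helicase, stood at 247, 159 and 146 FPKM in the Renilla libraries and at 193, 171 and 139.9 FPKM in the mock libraries. A mean over 3 Renilla libraries therefore carries these differences.

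No gene passed the test between Renilla and mock. Of 11550 genes tested with limma in a model of all 18 libraries, 0 had an adjusted p under 0.05 (0%; the smallest adjusted p was 1). An unadjusted p under 0.05 was found for 127 (1.1%), fewer than the 577.5 expected if no gene differed. The p-values of this fit thus ran high, and the lack of passing genes does not show that the groups are alike. The count was 321 with the 6 control libraries alone and 1348 with array quality weights. It was 490 without 4 libraries that stand apart (Renilla replicate 1 and 3 guide libraries). Renilla and mock differed by a median absolute 0.08 log2 units, and 97.8% of genes by less than 0.5. The 95% interval of the difference had a median width of 0.33 log2 units to either side. It lay within 1 log2 unit either way for 94.4% of genes and within 0.5 for 66.2%, so smaller differences could go undetected with 3 libraries in each group. Intervals from this fit also carry the spread of the guide libraries. With the 6 control libraries alone in the fit, 4 of 11402 genes passed (0.0351%; 0 with the replicate number as a block), and with weights for library quality 6 of 11550 did (0.0519%).

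The 6 marker genes gave small differences, with intervals that included 0 in the fit of 18 libraries. For Mpo the log2 difference of Renilla minus mock was 0.03 (95% interval −0.92 to 0.98 with all 18 libraries and −0.24 to 0.30 with the 6 control libraries alone). For Hoxa9 it was −0.03 (−0.40 to 0.33), for Meis1 0.00 (−0.22 to 0.22), for Ctsg 0.07 (−0.43 to 0.56), for Ms4a3 −0.08 (−0.60 to 0.44) and for Prtn3 −0.15 (−0.58 to 0.28). Without Renilla replicate 1 the direction turned for Mpo (−0.07), Ctsg (−0.05) and Hoxa9 (0.19). Jmjd1c differed by 0.06 (−0.29 to 0.41). Some intervals left out 0 in other settings, though no adjusted p passed there. Without the 4 libraries that stand apart this was so for Prtn3 (−0.30 to −0.02) and Ms4a3 (−0.37 to −0.04). With array quality weights it was so for Prtn3 (−0.36 to −0.02), Meis1 (0.00 to 0.24) and Jmjd1c (0.02 to 0.35). In none of the 32 gene lists with tested members did a gene pass, and the list medians lay between −0.20 for 2 stromal genes and 0.27 for 2 erythroid genes. Among lists with 20 or more tested genes the medians lay between −0.05 and 0.11, where the median over all tested genes was 0.00. Without Renilla replicate 1 the median turned in 9 lists. It was then −0.09 for DNA replication (0.06 with all 3 Renilla libraries), −0.02 for cholesterol synthesis (0.11) and −0.07 for nuclear oxidative phosphorylation (0.03). It was −0.13 for MHC class I presentation (0.00), −0.04 for cell death and survival (0.04) and 0.12 for the MLL-fusion list (−0.01). In the lists of p53 targets, pattern recognition receptors and T and NK cell genes it was 0.01, 0.01 and 0.09 without that library and slightly below 0 with it.

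Groups that did not overlap were counted next. In 487 genes (4.22%) all 3 Renilla libraries lay above all 3 mock libraries, and in 488 genes (4.23%) all lay below. Of the genes with the smallest p, none of which passed the adjusted threshold in the fit of 18 libraries, Gm10800 had the largest difference. This gene model, on chromosome 2 from 98666547 to 98667301, stood at 21.3, 14.8 and 26.7 FPKM in the Renilla libraries and at 0.301, 1.46 and 0.291 FPKM in the mock libraries, a log2 difference of 3.74 ± 0.82 (SE). Its neighbour Gm10801, from 98662237 to 98664083, stood at 9.41, 11.3 and 17.0 FPKM in the Renilla libraries and at 0.0797, 0.382 and 0 FPKM in the mock libraries. Gm10719, on chromosome 9, stood at 2.71 to 3.98 FPKM in the Renilla libraries and at no more than 0.910 FPKM in the mock libraries. Gm10718, which lies beside it and was picked after its values were seen, stood at 1.65 to 4.65 FPKM and at no more than 0.113 FPKM. Its level kept it out of the test. Of lower models in the same stretch, also not tested, Gm10717 and Gm11168 did not overlap between the groups, while Gm10715, Gm10721 and Gm10722 did. Among the 12 guide libraries Gm10800 ranged over 0.282 to 30.1 FPKM (median 1.63), and 1 of the 12 lay above the lowest Renilla value. With the 6 control libraries alone, Gm10800 and Gm10801 passed (limma, adjusted p 0.026 and 0.015), but not with the replicate number as a block (limma, adjusted p 0.18 and 0.075), and reads of such related models can be divided between them. Gm10271 stood at 2.01, 3.41 and 6.44 FPKM in the Renilla libraries and at 1.17, 0 and 0 FPKM in the mock libraries. The guide libraries held it at 1.41 to 5.75 FPKM, 10 of 12 at or above the lowest Renilla value and 0 of 12 at or below the highest mock value, and it passed with array quality weights (limma, adjusted p 0.036).

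Rdx was the only gene with a symbol of its own among the 5 of smallest p that were higher in Renilla. It encodes radixin, which links actin to the membrane, and stood at 65.1, 63.0 and 63.0 FPKM in the Renilla libraries and at 46.3, 54.3 and 51.8 FPKM in the mock libraries, a log2 difference of 0.32 (95% interval 0.15 to 0.50; limma, adjusted p 1). In the guide libraries it ranged over 53.1 to 63.6 FPKM, a range that overlapped both groups. Among the 5 genes of smallest p that were lower in Renilla were Gm9830, D17H6S53E, Gm44223 and Cd300a. D17H6S53E stood at 5.77, 6.13 and 5.89 FPKM in the Renilla libraries and at 7.07, 8.08 and 9.66 FPKM in the mock libraries. Cd300a, an inhibitory receptor of myeloid cells, stood at 11.2, 12.1 and 9.87 FPKM in the Renilla libraries and at 15.5, 13.3 and 16.1 FPKM in the mock libraries. Gm44223, a short pseudogene on chromosome 6 from 128919867 to 128919980, passed with the 6 control libraries alone (limma, adjusted p 0.018), but not with the replicate block. It also passed with array quality weights (limma, adjusted p 0.036). Gm44223 was listed at 0 in all 3 Renilla libraries and at 5.39, 5.25 and 9.48 FPKM in the mock libraries. It was at 0 in 5 of the 12 guide libraries too. The zinc finger gene Zfp969, which passed with the 6 control libraries alone (limma, adjusted p 0.037, and 0.12 with the replicate block), was likewise at 0 in the Renilla libraries, at 3.30 to 7.14 FPKM in the mock libraries and at 0 in 6 of the 12 guide libraries. Across the table, 87 tested genes differed by 1 log2 unit or more, and 70 of them were not protein-coding.

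**Figure D5:**
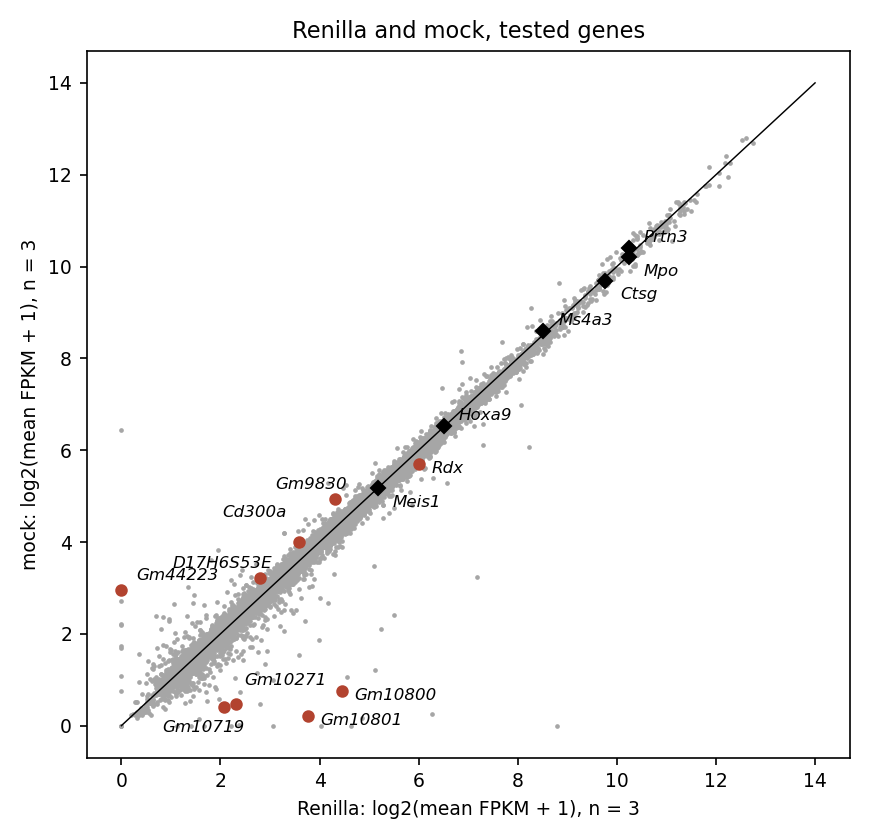
Mean of the 3 Renilla libraries (horizontal) against mean of the 3 mock libraries (vertical), as log2(mean FPKM + 1), for the 11550 tested genes in grey, with the line of equal values. Red points are 9 of the 10 genes of smallest p, none of which passed the adjusted threshold, and black diamonds are Mpo, Prtn3, Ctsg, Ms4a3, Hoxa9 and Meis1, which lie close to the line.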

How the data were processed

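Per the labels' protocols, poly(A) RNA was isolated from TRIzol extracts and made into libraries with a directional NEBNext kit. Per the submitters' processing notes, bcl2fastq 2.22.0.422, Salmon 0.13.0, R 3.5.3, DESeq2 1.22.1 and the mm10 genome were used, with no role given. FPKM of 23899 genes in 18 libraries were deposited by the authors, and the separate tables of 15 libraries differ from that table by at most 3.3e-06 FPKM. They are not counts, so limma 3.58.1 (R 4.3.3, trend) was run on log2(FPKM + 1), a scale that understates the change of low genes. The model had the means of 6 groups and no covariate, over the 11550 genes that averaged 1 FPKM or more in the 18 libraries. Benjamini-Hochberg adjusted p under 0.05 counted as passing. The test was also run on values simulated from the means and spreads of these libraries, with results not reported here.

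Estimated depth was taken from whole-read steps in 1473 genes whose only transcript has 2000 bases or more, after the authors' scaling, with a length correction of 100 bases for mock replicate 1 and 160 to 240 bases for the other control libraries. Coordinates and gene types are from GENCODE vM21 (GRCm38), which holds 98.8% of the symbols, and promoter sequences from RefSeq (GRCm38.p6). Python 3.11.15, numpy 2.4.6, pandas 2.3.3 and matplotlib 3.10.9 were used.

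The deviations of Renilla and mock libraries from their group means correlated across genes by 0.295, 0.212 and 0.156 for replicate numbers 1, 2 and 3. Each value was above the cut-off of 0.1 used here. Libraries of unlike number were not compared in this way, so the values cannot show whether the numbers pair the libraries. A fit with the replicate number as a block was run as an alternative. Other alternatives were a pseudocount of 0.1, no filter, 5 FPKM in 3 libraries, the 6 control libraries alone, upper-quartile scaling, array quality weights, each library left out, and libraries that stand apart left out.

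Named genes are the 6 markers, the 20 most abundant genes, the highest members of each list and those under 0.1 FPKM throughout, HOX genes, the ends of the first component, Jmjd1c and the 5 genes of smallest p in each direction. Other list members are given for their role. The members, lists and rules were chosen with earlier results of these data known. List members that the table does not hold, Xist among them, were not analysed here, and some genes named by these rules are not reported here.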

Additional observations from a re-analysis of the deposited data

How the results depend on the processing

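With the replicate number as a block, 0 genes passed between Renilla and mock in the fit of 18 libraries, as without it, and 0 passed in the fit of the 6 control libraries, against 4 there without the block. Genes passing were 1 with no filter on low values, 4 with the 6 control libraries alone and 6 with array quality weights, and 0 in every other alternative run, each left-out library included. The median distance of Renilla replicate 1 from the other 5 libraries was 0.252 with a pseudocount of 0.1, against 0.224. Small differences between Renilla and mock changed sign. With array quality weights Mpo was at −0.020 and Hoxa9 at 0.13. Without the 4 libraries that stand apart (Renilla replicate 1 and 3 guide libraries), an alternative chosen after seeing the data, Mpo was at −0.069, Ctsg at −0.054 and Hoxa9 at 0.19. Meis1 was at −0.023 with upper-quartile scaling. Leaving out each library in turn, the log2 difference ranged over −0.069 to 0.10 for Mpo, −0.054 to 0.14 for Ctsg, −0.21 to 0.033 for Ms4a3, −0.18 to 0.19 for Hoxa9, −0.069 to 0.14 for Meis1 and −0.00749 to 0.20 for Jmjd1c. The sign turned without Renilla replicate 1 or mock replicate 3 for Mpo and Ctsg, without Renilla replicate 1 for Hoxa9, without Renilla replicate 2 or 3 for Jmjd1c and also mock replicate 1 for Meis1, and without Renilla replicate 3 for Ms4a3. The cause of these turns was not tested. Of 334 gene differences recomputed, 17 changed sign and 10 passed the threshold that they had missed. No list gained a passing member in 400 recomputed counts. The estimated depth, lowest in mock replicate 3, limits levels under 0.1 FPKM most.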

Other observations

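Replication-dependent histone genes, which encode the core and linker histones made in S phase and whose mRNAs normally end in a stem-loop instead of a poly(A) tail, were looked at after their values were seen. Of 56 tested genes with a symbol that starts in Hist, 54 had a higher mean level in Renilla than in mock, 0 passed the adjusted threshold (limma), and the median log2 difference was 0.46, against 0.00 over all tested genes. All 3 Renilla values lay above all 3 mock values in 28 of the 56, where this held for 4.22% of all tested genes, and the reverse held for 0. The largest differences were those of Hist1h2ah and Hist1h4m. Hist1h2ah, an H2A gene, stood at 8.92, 4.98 and 5.56 FPKM in the Renilla libraries and at 2.12, 0.968 and 1.48 FPKM in the mock libraries. Hist1h4m, an H4 gene, stood at 18.7, 8.72 and 8.52 FPKM in the Renilla libraries and at 3.97, 2.94 and 4.72 FPKM in the mock libraries. Hist1h2ap, the most abundant, overlapped between the groups at 1667, 1622 and 1543 FPKM in the Renilla libraries and 1309, 1660.2 and 1430.1 FPKM in the mock libraries. Most of the 56 genes stood low. The median log2 difference was 0.50 in the 48 with a mean of at least 1 FPKM. It was 0.33 in the 5 of at least 10 FPKM, 2 of them without overlap, and 0.14 for Hist1h2ap, the 1 gene of at least 100 FPKM. Relative to the mock mean, the median over the 56 genes was 0.71, 0.47 and 0.36 log2 units in Renilla replicates 1, 2 and 3, and 0.05, 0.00 and −0.03 in mock replicates 1, 2 and 3. In the 12 guide libraries it ranged over 0.11 to 1.88. The libraries were made from poly(A)-selected RNA, near-identical histone genes can share reads, and the part of either in these values was not tested.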
